A study of Homo sapiens with 6 samples.

Results

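The genes described here are 10 genes of the actin and contractile cytoskeleton, ACTB, ACTG1, ACTA2, TAGLN, MYL9, CNN1, CNN2, TPM1, TPM2 and ACTN1, chosen by symbol from a table of 59074 genes. The cells were 3 established human glioblastoma lines (U251, T98G and LN-229), transfected with a siRNA pool against the long non-coding RNA HOTAIRM1 (siHOTAIRM1) or with a non-target pool (siControl), and their RNA was sequenced 72 h later. There was 1 library for each cell line and condition, so 6 libraries in all, and the 3 cell lines were the replicates of the knock-down. The sample titles write LNT229 for LN-229. Levels are given in CPM, read counts scaled to library depth, as deposited, and a change is log2(CPM + 1) in siHOTAIRM1 less that in siControl. Of the 10 genes, 7 passed the filter for testing, which asked for a mean of 1 CPM or more. TAGLN, MYL9 and CNN1 did not.

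Actin filaments are polymers of actin monomers, and in non-muscle cells they consist of the beta and gamma forms encoded by ACTB and ACTG1. Tropomyosins lie along the filament, alpha-actinin crosslinks filaments into bundles, and myosin II pulls on them when its regulatory light chain is phosphorylated. The smooth muscle forms of these proteins (ACTA2, TAGLN, CNN1 and MYL9) are known from contractile smooth muscle and myofibroblasts. Many of these genes are targets of the transcription factor SRF, which binds the CArG box and is activated by the MRTF coactivators when free actin monomers are depleted.

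The CArG box (CC, 6 bases that are each A or T, and GG) was searched in promoter windows of 300 bases, from 250 before to 50 after each start site, taken from RefSeq on GRCh38.p14. These sequences are shown because SRF is the known common regulator of this group of genes. The box reads the same as a pattern on both strands. Of the 10 genes, 7 had a window, and the box was found in 3 of their 12 windows (25.0%), against 1.29% of 35116 windows of all genes. A box with 1 C or G in its core was found in ACTA2, and with such boxes counted the share was 33.3% of the members' windows and 8.13% of all windows. The sequences are written 5′ to 3′ on the strand of the gene, with the box in capitals.
ACTG1 (chr17:81512884-81512893, minus strand): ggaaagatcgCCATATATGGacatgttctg
CNN2 (chr19:1026519-1026528, plus strand): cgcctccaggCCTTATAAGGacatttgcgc
ACTN1 (chr14:68977728-68977737, minus strand): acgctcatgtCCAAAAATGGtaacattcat
ACTA2, distal (chr10:88952885-88952894, minus strand): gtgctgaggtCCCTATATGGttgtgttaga
ACTA2, proximal (chr10:88952835-88952844, minus strand): tgtctttgctCCTTGTTTGGgaagcaagtg
Counted from the start site, the first base of the box lies at -94 in ACTG1, -89 in CNN2 and -171 in ACTN1, and those of the ACTA2 boxes lie at -121 and -71. CNN1, TPM1 and TPM2 had windows without such a match. ACTB, TAGLN and MYL9 had no window and were not searched. A match describes letters in a window and is not evidence of binding.

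HOTAIRM1, the targeted RNA, was lower in siHOTAIRM1 than in siControl in each cell line. Its level was 1.99 and 0.952 CPM in LN-229, 3.49 and 2.15 CPM in T98G, and 1.27 and 0.623 CPM in U251, for siControl and siHOTAIRM1. The change over the cell lines was -0.54 (SE 0.12, limma adjusted p = 0.0146). No gene of the table, HOTAIRM1 included, passed without the cell line as a block, by the paired t-statistic, without the filter or without T98G. Libraries held 52.3 to 103.9 M reads, and the listed genes took 42.9 to 67.2% of the CPM scale. On knock-down this share went from 50.2 to 42.9% in T98G, from 67.2 to 55.9% in U251 and from 47.0 to 48.5% in LN-229, so values were also computed with the listed genes rescaled to the same sum. For all genes tested, the median change as deposited was 0.01 for LN-229, -0.03 for U251 and -0.19 for T98G. With the listed genes rescaled it was -0.03 for LN-229, 0.17 for U251 and 0 for T98G, so the line that stood apart depended on the scaling. The sum of 6 glial and glioma markers was 1034 to 2260 CPM in LN-229 and U251 and 405 and 255 CPM in T98G, and VIM was the largest part of it in every library. In T98G, S100B was listed at 0 reads, SOX2 was under 3 reads, NES was at 0.956 and 0.866 CPM and OLIG2 at 0.956 and 0.578 CPM. GFAP was at 42.5 and 20.7 CPM in U251 and at most 0.317 CPM elsewhere, and OLIG2 was at 0.0575 CPM and 0 reads in U251. The sum of 8 smooth muscle markers was 8.81 to 32.1 CPM and included 6.22 to 14.6 CPM of SMTN, with HHIP at 16.2 and 6.17 CPM in LN-229 and ACTG2 at 5.61 and 6.14 CPM in U251, while MYH11, DES and LMOD1 stayed at or below 0.188 CPM and MYOCD was listed at 0 reads in 5 of 6 libraries and had about 1 read in the other. In bulk RNA, fewer cells that express a gene and less RNA per cell cannot be told apart.

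Knock-down of HOTAIRM1 left none of the 7 tested genes past the threshold. By limma, 0 of 7 passed an adjusted p of 0.05, against 2.0% of all 14294 genes tested (59 higher and 227 lower). With each library centred on its median the count over all genes was 41 (15 higher and 26 lower), and with the listed genes rescaled it was 19 (7 and 12). At an unadjusted p under 0.05 the count was 1 by limma (CNN2, higher). By a paired t-statistic computed gene by gene it was also 1, but for another gene (TPM1, -0.21, SE 0.05), and 0 after adjustment. CNN2 did not pass by the paired t-statistic (0.46, SE 0.15). CNN2 and ACTA2 had higher values in siHOTAIRM1 in all 3 cell lines (2 of 7 genes, against 11.4% of all genes), and ACTG1 and TPM1 had lower values in all 3 (2 of 7, against 28.1%). With the listed genes rescaled, ACTG1 and TPM1 were instead higher in U251, and CNN2 and ACTA2 were higher in each line as before. Past 1.5-fold within a single cell line were 0 of 7 in LN-229 (1.45% of all genes), 0 of 7 in T98G (4.61%) and 1 of 7 in U251 (CNN2, 12.9%). With 1 library for each line and condition there was no test within a cell line.

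**Figure D1:**
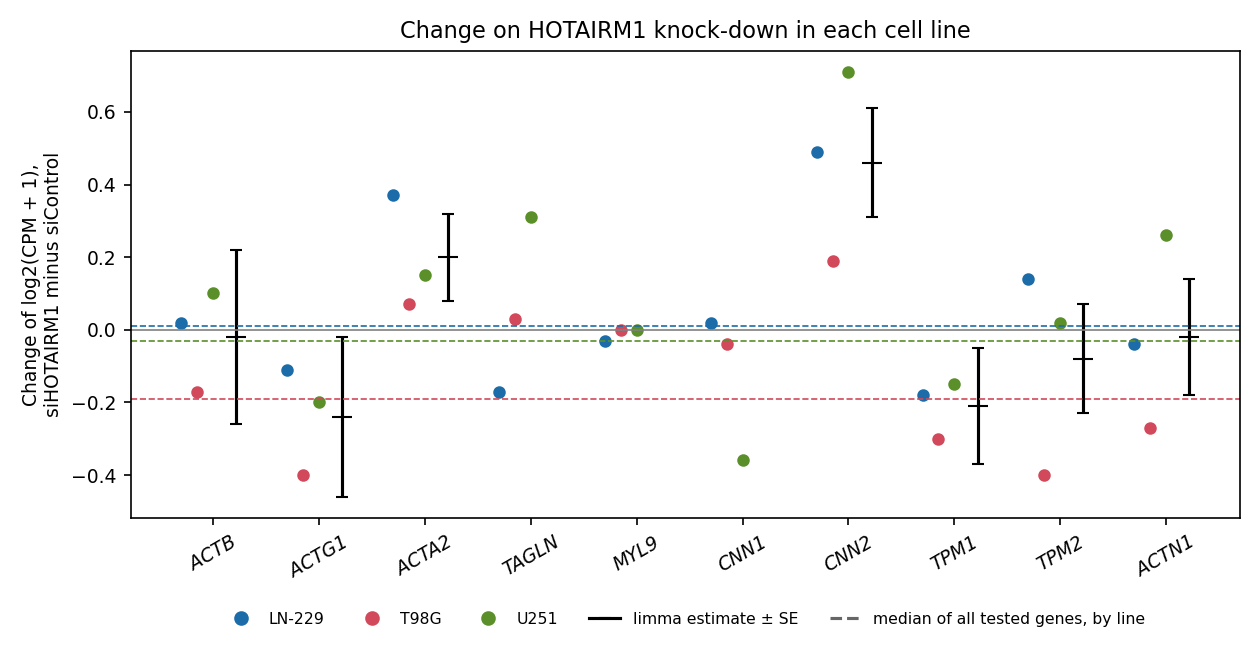
Change of log2(CPM + 1), siHOTAIRM1 minus siControl, for the 10 genes. Points are the 3 cell lines, black bars the limma estimate ± SE for the 7 tested genes, and dashed lines the median of all tested genes in each line; CNN2 (0.19 to 0.71) and ACTA2 (0.07 to 0.37) lie above 0 in all 3 lines, ACTG1 and TPM1 below it on this scale, although with the listed genes rescaled both were above 0 in U251, and ACTB, TPM2 and ACTN1 have points on both sides.

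The cell lines differed from each other much more than the conditions did, over all genes tested as well as for the members. Between cell lines, limma called 5 of 7 genes for T98G against LN-229, where 54.9% of all genes were called. It called 7 of 7 for U251 against LN-229 (60.6% of all genes) and 5 of 7 for U251 against T98G (64.2%). With 7 genes, these counts were not tested against the shares of all genes and are not given as a trait of the members. Without the filter, ACTB and ACTN1 lost the call for U251 against LN-229. U251 had the most ACTB, ACTG1 and CNN2, LN-229 the most TPM1, ACTN1 and ACTA2, and T98G the most TPM2. Each cell line is represented by 2 libraries, its siControl and siHOTAIRM1 culture, and each contrast rests on the spread left after the line and the knock-down were fitted. Where lines are said below not to overlap, these 2 libraries of each line were compared. The share of all genes without overlap was not computed. Because limma adjusts the spread of each gene by that of all genes tested, the p-values depend on which genes are tested. For TPM2 in T98G minus LN-229 the limma adjusted p was 9.81e-13, and 0.001 without the filter. Since each line differed from the others in more than its cytoskeleton and in its share of reads on listed genes, line and library composition cannot be told apart.

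**Figure D2:**
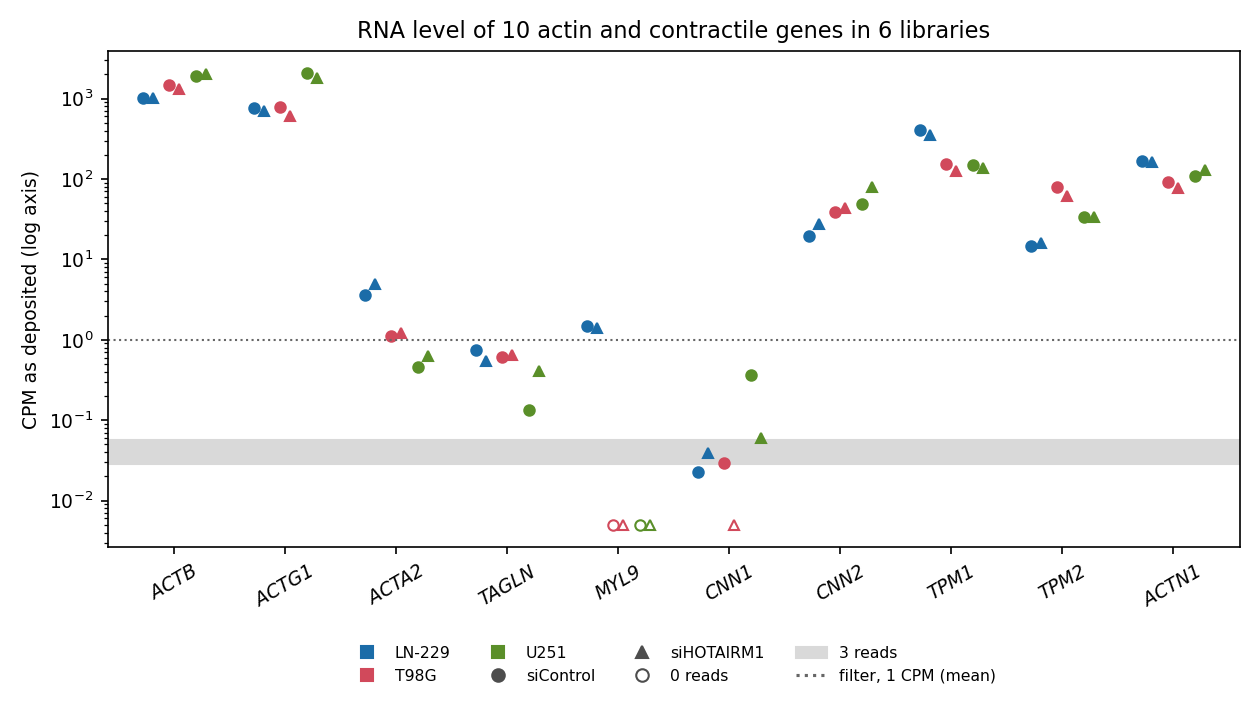
Level of the 10 genes in the 6 libraries, in CPM on a log axis, with colour for the cell line, circles for siControl and triangles for siHOTAIRM1. Open symbols are drawn at the foot of the axis for values of 0 reads, and the grey band marks 3 reads (0.0289 to 0.0574 CPM); ACTB and ACTG1 lie between 605 and 2059 CPM, and MYL9 is at 0 reads in the 4 libraries of T98G and U251.

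ACTB, the beta actin gene, held 1005 and 1018 CPM in LN-229, 1471 and 1309 CPM in T98G and 1905 and 2048 CPM in U251, in siControl and siHOTAIRM1. It ranked between 10 and 21 of all listed genes in every library. U251 was the highest line and LN-229 the lowest, with no overlap between the lines. U251 exceeded LN-229 by 0.96 on the log2 scale (SE 0.30, limma adjusted p = 0.00546). This call was lost with the listed genes rescaled (0.60, limma adjusted p = 0.059) and without the filter (limma adjusted p = 0.0944). T98G lay between them, and its differences from LN-229 (0.46, limma adjusted p = 0.195) and from U251 (0.51, limma adjusted p = 0.133) did not pass, although that from LN-229 passed with each library centred (0.54, limma adjusted p = 0.0416). On knock-down the estimate was -0.02 (SE 0.24, limma adjusted p = 0.982), and it was 0.06 with each library centred on its median and 0.13 with the listed genes rescaled.

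ACTG1, the gamma actin gene, held 759 and 704 CPM in LN-229, 796 and 605 CPM in T98G and 2059 and 1789 CPM in U251. U251 stood above both other lines, which overlapped each other. The log2 difference of U251 was 1.39 from LN-229 (SE 0.27, limma adjusted p = 4.48e-05) and 1.47 from T98G (limma adjusted p = 1.92e-05), and T98G minus LN-229 was -0.08 (limma adjusted p = 0.832). The knock-down values were lower in all 3 cell lines (-0.11, -0.40 and -0.20), with an estimate of -0.24 (SE 0.22, limma adjusted p = 0.604). With the listed genes rescaled, the change in U251 was 0.06. Processed pseudogenes of ACTB and ACTG1, which can share reads with them, held at most 1.4% and 0.932% of the level of the parent gene.

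The ratio of ACTB to ACTG1 within a library does not depend on the scaling of that library. It was 1.32 and 1.45 in LN-229, 1.85 and 2.16 in T98G and 0.925 and 1.14 in U251, in siControl and siHOTAIRM1. The ratio was thus higher in siHOTAIRM1 in 3 of 3 lines. The log2 ratio went up by 0.13, 0.23 and 0.31 (mean 0.22, SD 0.09, n = 3). The exact sign permutation test, two-sided, gave p = 0.25, the smallest that 3 lines allow. Among the 6 actin genes, per kilobase of the reference transcript, ACTB and ACTG1 held nearly the whole sum, and gamma actin exceeded beta actin only in U251 siControl (50.4 against 49.4%).

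**Figure D3:**
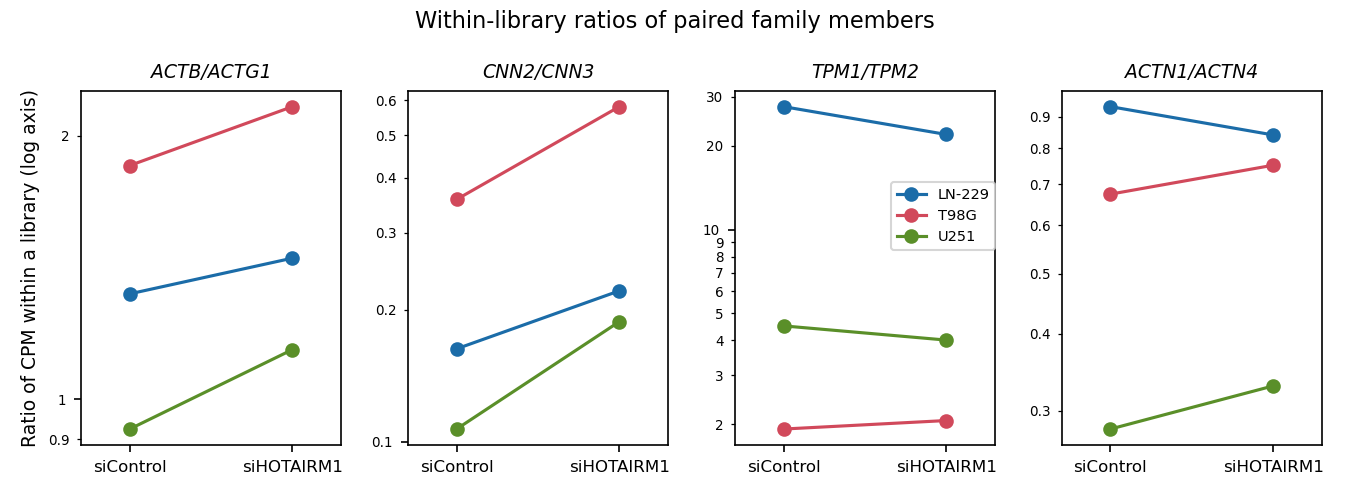
Ratio of CPM of paired family genes within each library, on a log axis, with 1 line for each cell line from siControl to siHOTAIRM1. The ACTB/ACTG1 and CNN2/CNN3 lines slope upward in all 3 cell lines, and those of TPM1/TPM2 and ACTN1/ACTN4 go both ways.

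TPM1, a tropomyosin gene with many spliced forms, held 401 and 354 CPM in LN-229, 154 and 125 CPM in T98G and 150 and 135 CPM in U251. LN-229 stood above the other lines, which overlapped. It exceeded T98G by 1.43 on the log2 scale (T98G minus LN-229 -1.43, SE 0.20, limma adjusted p = 1.55e-07) and U251 minus LN-229 was -1.40 (limma adjusted p = 2.49e-07). U251 and T98G did not differ beyond the spread (0.04, limma adjusted p = 0.879). The sign of U251 minus T98G depended on the scaling. It was -0.17 with each library centred (limma adjusted p = 0.263) and -0.36 with the listed genes rescaled (limma adjusted p = 0.0867). The knock-down values were -0.18, -0.30 and -0.15 in LN-229, T98G and U251, with an estimate of -0.21 (SE 0.16, limma adjusted p = 0.502). With the listed genes rescaled, the value in U251 was 0.11.

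TPM2 encodes beta tropomyosin and showed the opposite order. It held 14.5 and 16.0 CPM in LN-229, 80.4 and 60.5 CPM in T98G and 33.3 and 33.7 CPM in U251, and the 3 lines did not overlap. T98G exceeded LN-229 by 2.12 on the log2 scale (SE 0.18, limma adjusted p = 9.81e-13). U251 minus LN-229 was 1.09 (limma adjusted p = 2.61e-06) and U251 minus T98G was -1.04 (limma adjusted p = 5.36e-06). On knock-down LN-229 gave 0.14, T98G -0.40 and U251 0.02. The estimate of -0.08 (SE 0.15, limma adjusted p = 0.806) became 0.07 with the listed genes rescaled and 0.08 without T98G.

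The tropomyosin make-up therefore differed between the lines. Of the 4 tropomyosin genes per kilobase, TPM1 made up 78.4% in LN-229 siControl, 43.3% in T98G and 40.8% in U251, and TPM2 made up 2.89, 23.1 and 9.26%. TPM4 took 11.8% in LN-229 and 38.8% in U251. The CPM ratio of TPM1 to TPM2 was 27.7 and 22 in LN-229, against 1.92 and 2.06 in T98G and 4.51 and 4.01 in U251. On knock-down the ratio moved in different directions (log2 change -0.33, 0.10 and -0.17). These shares depend on the reference transcript chosen for length.

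ACTN1, a non-muscle alpha-actinin, held 169 and 164 CPM in LN-229, 92.5 and 76.3 CPM in T98G and 108 and 130 CPM in U251. LN-229 was highest, U251 lay next and T98G was lowest, with no overlap. T98G minus LN-229 was -0.98 (SE 0.19, limma adjusted p = 5.3e-05). The other differences were smaller, with -0.49 for U251 minus LN-229 (limma adjusted p = 0.0275, and 0.11 without the filter) and 0.49 for U251 minus T98G (limma adjusted p = 0.0267). The latter was 0.28 with each library centred (limma adjusted p = 0.123) and 0.09 with the listed genes rescaled (limma adjusted p = 0.7), and without the filter its limma adjusted p was 0.104. On knock-down the values were -0.04, -0.27 and 0.26, with an estimate of -0.02 (SE 0.16, limma adjusted p = 0.968) that was 0.06 when centred and 0.13 when rescaled. ACTN4, the other non-muscle alpha-actinin, held 44.3% of the family per kilobase in LN-229 siControl and 72.7% in U251.

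**Figure D4:**
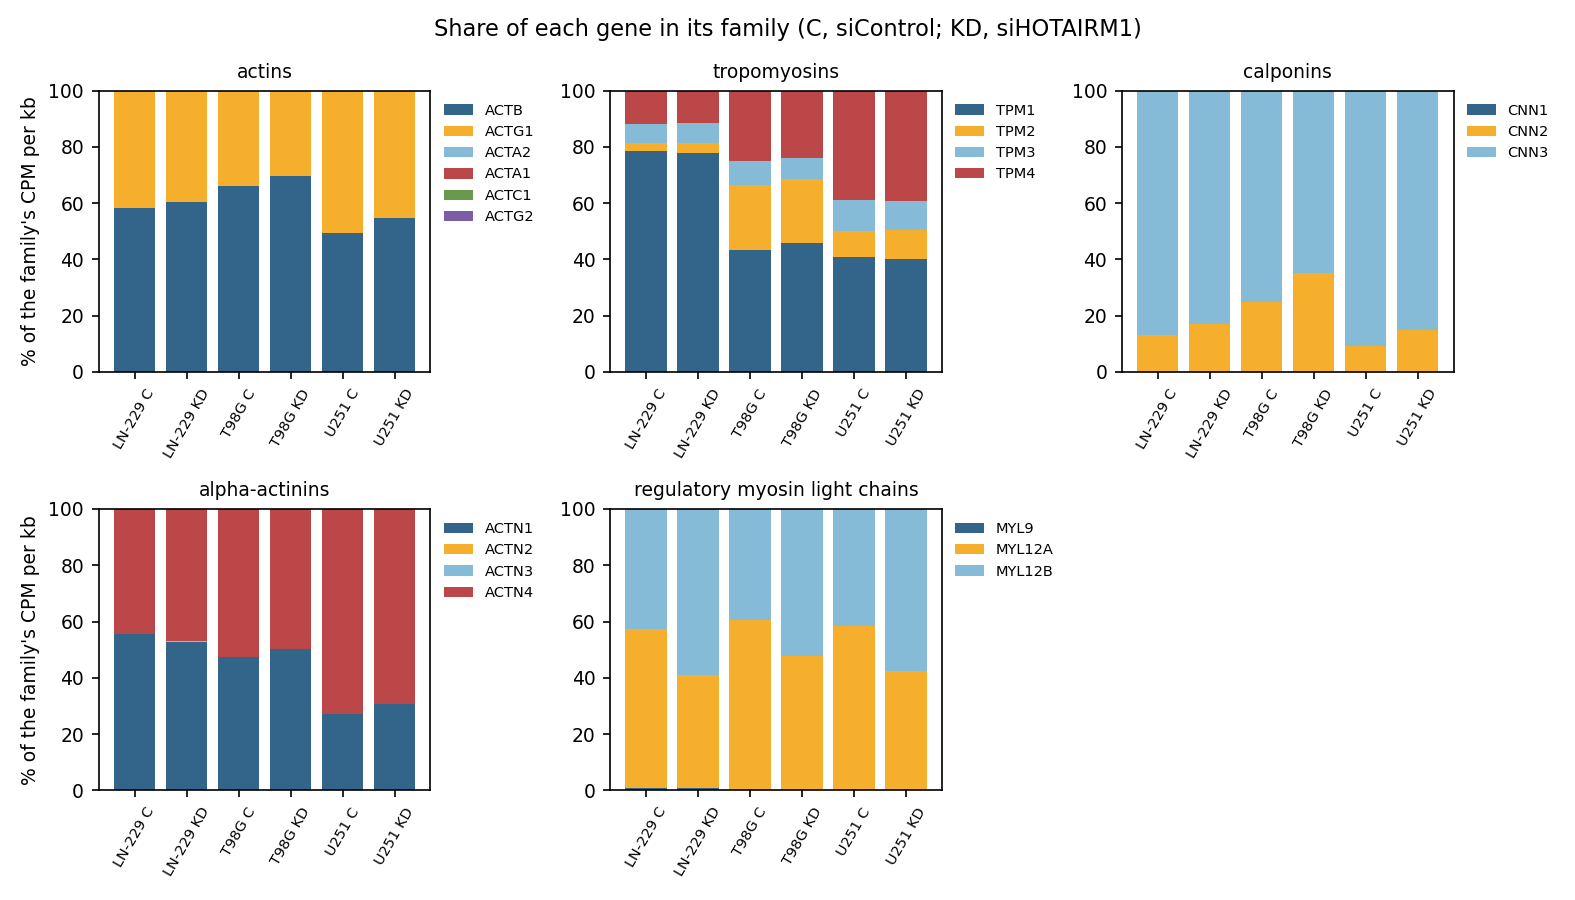
Share of each gene in its family, in percent of the CPM per kilobase of the reference transcript, for the 6 libraries (C, siControl; KD, siHOTAIRM1). TPM1 takes 78.4% of tropomyosins in LN-229 siControl and 43.3 and 40.8% in T98G and U251, and the CNN2 part of the calponins is larger in KD than in C in each line.

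ACTA2, the smooth muscle alpha actin gene, was a minor actin in these cells. It held 3.63 and 4.99 CPM (320 and 519 reads) in LN-229, 1.11 and 1.22 CPM (77 and 89 reads) in T98G and 0.459 and 0.623 CPM (24 and 63 reads) in U251. The order from LN-229 through T98G to U251 held in every library, without overlap. T98G minus LN-229 was -1.28 (SE 0.15, limma adjusted p = 5.46e-09) and U251 minus LN-229 was -1.77 (limma adjusted p = 1.9e-12), or -2.78 with a pseudocount of 0.1. The mean of ACTA2 over the 6 libraries, 2.01 CPM, reached the filter mainly through LN-229 (mean 4.31, against 1.17 in T98G and 0.541 in U251). Both calls are thus not independent of the filter. Without it their limma adjusted p was 0.00471 and 0.00176. U251 minus T98G was smaller, at -0.50 (limma adjusted p = 0.00512, and 0.0774 without the filter). The knock-down values were 0.37, 0.07 and 0.15, with an estimate of 0.20 (SE 0.12, limma adjusted p = 0.398). The 95% counting interval of the log2 CPM ratio was 0.26 to 0.66 in LN-229 and included 0 in T98G and U251. The antisense gene ACTA2-AS1 overlaps 38.3% of the ACTA2 transcript and was listed at 0.399 to 0.623 CPM, and the library kit does not mark the strand, so low ACTA2 levels may include its reads.

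CNN2, an actin-binding calponin of non-muscle cells, had the largest knock-down estimate of the 7 tested genes. It held 19.3 and 27.5 CPM in LN-229, 38.4 and 43.8 CPM in T98G and 48.4 and 80.0 CPM in U251. Each siHOTAIRM1 value was above that of its own siControl, and the lines did not overlap. The changes were 0.49, 0.19 and 0.71, and the estimate of 0.46 (SE 0.15) had an unadjusted limma p of 0.00308 and an adjusted p of 0.0824. It missed the threshold of 0.05 and passed with a pseudocount of 0.1 only (limma estimate 0.47, adjusted p = 0.0401). The limma estimate was 0.54 with each library centred (adjusted p = 0.109) and 0.62 with the listed genes rescaled (adjusted p = 0.19). Without the filter it was 0.46 (adjusted p = 0.667). Between lines, T98G minus LN-229 was 0.80 (SE 0.18, limma adjusted p = 0.00024), U251 minus LN-229 was 1.39 (limma adjusted p = 2.37e-08) and U251 minus T98G was 0.59 (limma adjusted p = 0.00436). The last difference was 0.20 with the listed genes rescaled (limma adjusted p = 0.347). CNN2 pseudogenes held 1.37 to 2.11% of its level, and an unnamed gene on the opposite strand overlaps 15.7% of its transcript.

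CNN3, the acidic calponin, was the main calponin in all 6 libraries. The CPM ratio of CNN2 to CNN3 went from 0.163 to 0.221 in LN-229, from 0.357 to 0.581 in T98G and from 0.107 to 0.188 in U251. It was higher on knock-down in 3 of 3 lines, by 0.44, 0.70 and 0.82 on the log2 scale (mean 0.65, SD 0.19, n = 3). The exact sign permutation test, two-sided, gave p = 0.25, as it does for any 3 changes in the same direction. CNN3 alone had an estimate of -0.18 (SE 0.16, limma adjusted p = 0.598). Per kilobase, CNN2 made up 13.1, 24.9 and 8.98% of calponins in siControl of LN-229, T98G and U251.

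The other 3 genes had means below 1 CPM. CNN1, the smooth muscle calponin, had 2 and 4 reads in LN-229, 2 and 0 in T98G and 19 and 6 in U251. Its level in U251 was 0.364 CPM in siControl and 0.0594 CPM in siHOTAIRM1, a ratio of 0.163 with a 95% counting interval of 0.0652 to 0.409. It lay below the filter, and the interval covers counting error of 1 pair of libraries only.

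TAGLN, which encodes transgelin, an actin-binding protein of smooth muscle, had 65 and 56 reads in LN-229, 42 and 47 in T98G and 7 and 41 in U251. These are 0.736 and 0.539, 0.608 and 0.646, and 0.134 and 0.405 CPM. The U251 libraries were the lowest, and their ratio was 3.02 (95% counting interval 1.36 to 6.74). TAGLN lies opposite to PCSK7, which covers 59.0% of its transcript and held 33.5 to 45.7 CPM, so reads of the 2 genes cannot be told apart without strand where they overlap. An unnamed gene on the same strand also overlaps 66.0% of the TAGLN transcript. TAGLN2, a related transgelin gene, was at 123 to 199 CPM.

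MYL9, a regulatory light chain of smooth muscle and non-muscle myosin II, was detected in LN-229 only, with 130 and 147 reads (1.47 and 1.41 CPM). It was listed at 0 reads in the 4 libraries of T98G and U251, which allows up to 3 reads in each, or 0.0296 to 0.0574 CPM. MYL12A and MYL12B carried nearly all of the regulatory light chain RNA in every library, and MYL9 made up 0.956% of the family per kilobase in LN-229 siControl. The CPM ratio of MYL12B to MYL12A was 0.917 and 1.78 in LN-229, 0.794 and 1.32 in T98G and 0.857 and 1.64 in U251, named after its values were seen. It was higher on knock-down in 3 of 3 lines (mean log2 change 0.87, SD 0.12), given as a description with no test. The 2 genes are close paralogs, and their reads were split by an estimation step, so each of their levels is uncertain.

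Among 82 other genes of the actin pathway, 74 were tested. By limma, 1 passed the threshold higher and 2 lower (of 74, against 2.0% of all genes), and 20 estimates were above and 54 below 0 as deposited, with a median of -0.11 against -0.07 over all genes. Of all genes tested, 63.8% had estimates below 0 as deposited, 48.4% with each library centred and 40.2% with the listed genes rescaled. SSH1, a phosphatase that activates cofilin, rose by 0.66 (SE 0.15, limma adjusted p = 0.0166), from 91.6 to 121 CPM in LN-229, 37.1 to 49.7 CPM in T98G and 8.86 to 21.4 CPM in U251. MYLK, the kinase that phosphorylates the regulatory light chain, fell by 0.79 (SE 0.17, limma adjusted p = 0.00992). Its levels went from 7.06 to 6.69 CPM in LN-229, 111 to 63.6 CPM in T98G and 115 to 40.3 CPM in U251, so the difference was small in LN-229. MYL6, the essential light chain of myosin II, fell by 0.71 (SE 0.17, limma adjusted p = 0.0199), from 187 to 144 CPM in LN-229, 179 to 106 CPM in T98G and 477 to 238 CPM in U251. The count of 3 was 0 with each library centred, with the listed genes rescaled, without the cell line as a block, without the filter, without T98G and without U251, and 5 without LN-229.

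**Figure D5:**
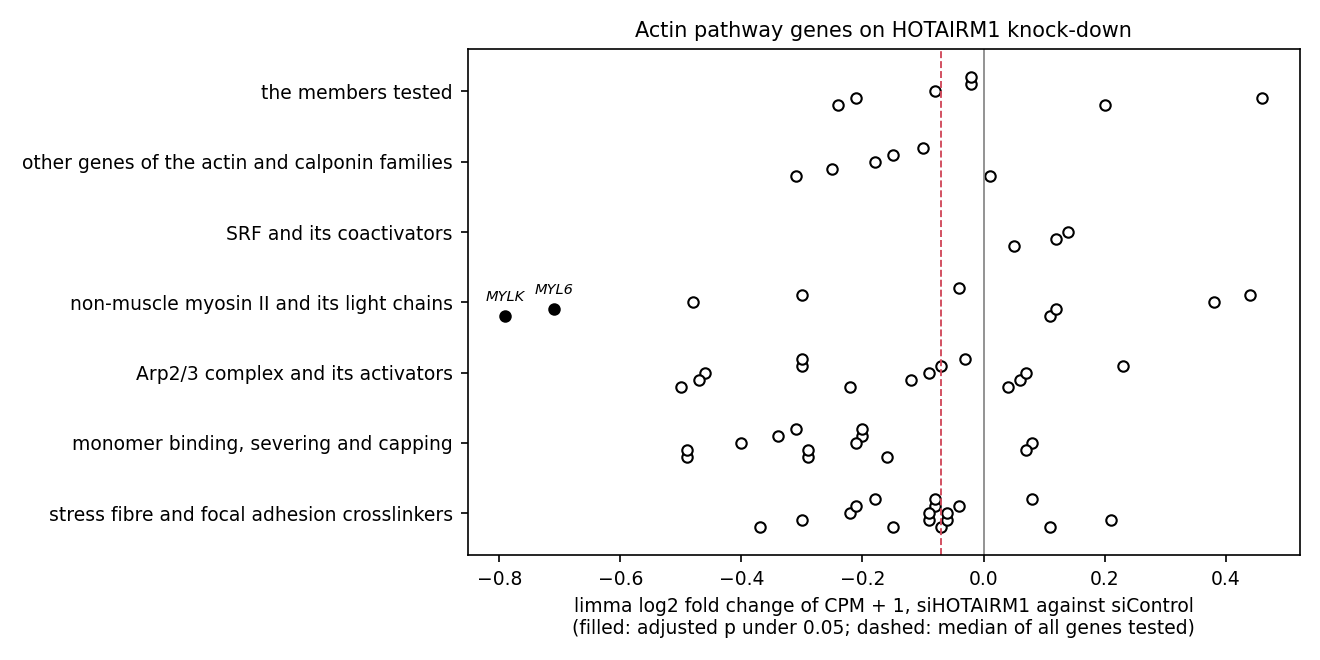
Estimated log2 fold change of CPM + 1 on knock-down for the 7 tested members and 62 other actin pathway genes, by list; each point is 1 gene, filled where the limma adjusted p is under 0.05, and the dashed line is the median of all genes tested (-0.07). MYL6 and MYLK are filled, neither of which was called with each library centred or the listed genes rescaled, and no member is filled.

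In the other lists no gene passed, and medians near that of all genes changed sign with the scaling. Of 3 tested genes for SRF and its coactivators, all had estimates above 0 under each scaling, but limma told none of them apart from 0. As deposited, SRF was at 0.05 (SE 0.15, limma adjusted p = 0.903) and MKL2 at 0.12 (SE 0.14, limma adjusted p = 0.672). MKL1, an older symbol of MRTFA, was at 0.14 (SE 0.14, limma adjusted p = 0.623), and the median of all genes was -0.07. SRF itself was lower on knock-down for T98G (-0.22) and higher for U251 (0.29) and LN-229 (0.08). Of 14 genes of the Arp2/3 complex and its activators, which nucleate branched filaments, 10 had estimates below 0 (6 with the listed genes rescaled), with ARPC3 the lowest (-0.50, limma adjusted p = 0.0753) and WASF2 the highest (0.23). Of 13 tested genes for monomer binding, severing and capping, 11 were below 0 under each scaling, with a median of -0.29 (-0.21 centred and -0.15 rescaled, where that of all genes was 0.01 and 0.05) and TMSB10, a monomer-binding thymosin, the lowest (-0.49, limma adjusted p = 0.117). Of 17 tested crosslinkers of stress fibres and focal adhesions, 14 were below 0, with a median of -0.08, and 7 were when rescaled. Of the smooth muscle actins, ACTG2, encoding enteric gamma actin, was at 5.61 and 6.14 CPM in U251 and at most 0.151 CPM in the other lines.

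Across the 6 libraries, the gene nearest to each member was the one with the smallest root mean square distance of its centred log2 profile, among 14287 other genes tested. It was TRAPPC1 for ACTB (distance 0.04), RHOF for ACTA2 (0.10), KAT6B for CNN2 (0.08), OTUB2 for TPM1 (0.07), PGD for TPM2 (0.06), PA2G4P2 for ACTN1 (0.03) and RP11-756P10.3 for ACTG1 (0.05). For the genes below the filter it was RP11-708J19.1 for TAGLN, C18orf25 for MYL9 and ZNF627 for CNN1. The profiles are set mainly by the cell line, and these likenesses are descriptions over 6 libraries of 3 lines.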

How the data were processed

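The authors made 6 libraries with the TruSeq v2 kit, which does not keep strand, and sequenced them on an Illumina HiSeq. Per the labels and the study's methods, reads were aligned to hg38 with STAR 2.4.1d and quantified in Partek on Ensembl release 84 by expectation-maximization. The deposited table, as the authors made it, gives CPM for 59074 genes, each with 0.0001 added, so 0.0001 stands for 0 reads.

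Steps between the lowest CPM values gave the worth of 1 read, and from it 52.3 to 103.9 M reads per library. Only 87.9 to 89.1% of low values were whole reads (tolerance 0.02), so no count test was used. Counting intervals are at 95% and cover counting error only, and 3 reads were taken as the floor. The 14294 genes whose mean reached 1 CPM were tested on log2(CPM + 1) in R 4.3.3 by limma 3.58.1 (trend on the mean, block on the cell line, threshold 0.05 after Benjamini-Hochberg adjustment). A fold change on this scale understates that of low genes. Samples of the same cell line deviated together from the mean of their condition (correlation 0.948 to 0.967), and the pairing comes from the cell line. Between lines the correlation was -0.505 to -0.467. Subtracting a mean of 3 lines makes such values negative, so they do not measure how unlike the lines are. No label says whether cultures were separate, so p-values measure the spread between these libraries. Gene lengths and overlaps are from GENCODE 44, whose reference transcripts are later than the release used by the authors, and promoter windows are from RefSeq. Named were the 10 genes, list genes past the threshold, the largest and smallest estimate in each list, and the nearest gene of each member. Of the pathway lists, 1 was analysed but is left out of the text and figures on its own. The members and gene lists were chosen with earlier results of these data known. The limma step was also run on simulated data with independent noise. That simulation held no shifts in library composition, so it does not measure the error rate in these data. Other steps ran in Python 3.11.15 (pandas 2.3.3, numpy 2.4.6, matplotlib 3.10.9, scipy 1.17.1).

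The alternatives were no block, the paired t-statistic of each gene, centring on the library median, rescaling to the listed genes, a pseudocount of 0.1, no filter, summing members with their pseudogenes, and leaving out each cell line.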

Additional observations from a re-analysis of the deposited data

Results flagged for a closer look

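In 3 genes, the change within 1 cell line and that within another had counting intervals on opposite sides of 0. For ACTB the change in U251 exceeded that in T98G by 0.27 on the log2 scale. For TPM2 the change in LN-229 exceeded that in T98G by 0.54, and for ACTN1 that in U251 exceeded that in T98G by 0.54. With 1 library for each line and condition, these differences were not tested against the spread between libraries. In all 3 the lower value as deposited was that of T98G, where the median change of all genes was -0.19, and relative to that median T98G was at 0.02 for ACTB, -0.21 for TPM2 and -0.08 for ACTN1. With the listed genes rescaled, ACTB was above 0 in both T98G (0.06) and U251 (0.37), and at -0.03 in LN-229. Rescaled values in LN-229, T98G and U251 were 0.10, -0.18 and 0.28 for TPM2. For ACTN1 they were -0.09, -0.05 and 0.53, with LN-229 the lowest. The part of the median shift in the differences was not tested further.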

How the results depend on the processing

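Of the 70 alternative values for the change of the 7 tested members, 61 kept direction and side of the threshold, 8 reversed and 1 (CNN2) passed it. The reversals were all of estimates that did not pass: ACTB was 0.06 when centred on the library median, 0.13 when rescaled to the listed genes and 0.06 without T98G, TPM2 was 0.07 rescaled and 0.08 without T98G, and ACTN1 was 0.06 centred, 0.13 rescaled and 0.11 without T98G. With a pseudocount of 0.1, 1 member (CNN2, 0.47) was called and not 0. The number of other pathway genes called on knock-down, 3 of 74, was 0 without the cell line as a replicate block, by the paired t-statistic, centred, rescaled or without the filter, 8 with a pseudocount of 0.1, and 0 to 5 on leaving out each cell line. The count over all genes went from 286 to 683 with a pseudocount of 0.1 and to 0 without T98G. Between cell lines, 5 members were called for T98G against U251 and 3 without the filter. Of the members' differences between lines, 8 alternative values lost the call and 1 gained it, as given beside ACTB, ACTN1, ACTA2 and CNN2. ACTG1 in T98G minus LN-229 was 0.01 centred, and TPM1 in U251 minus T98G was -0.17 centred and -0.36 rescaled. Levels under 3 reads and differences of single libraries are at the limit of depth; the causes of these changes were not tested.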
